A study of Mus musculus with 16 samples.

Results

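The 9 genes described here encode the LSD1-CoREST-HDAC corepressor complex and its close relatives: the histone demethylase Kdm1a (LSD1), the CoREST scaffolds Rcor1, Rcor2 and Rcor3, the class I deacetylases Hdac1, Hdac2 and Hdac3, and the accessory proteins Hmg20b and Gse1. They were taken by symbol from a table of 24411 genes, and all 9 were found and passed the filter on low counts. The study asked how the corepressor Runx1t1, which acts with this complex, contributes to neuroblastoma driven by MYCN. RNA was sequenced in 16 mouse libraries: 12 of them were made from celiac ganglia, dissected at an age of 2 weeks, and 4 from tumors of an age that is not given.

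MYCN libraries came from mice homozygous for Th-MYCN, a human MYCN transgene driven by the tyrosine hydroxylase promoter in neuroectodermal cells and kept on a 129/SvJ background. The Runx1t1 knock-out was a line with insertional inactivation, of mixed background, that was crossed in. Of the ganglia without the transgene (control ganglia), 4 were Runx1t1+/+ and 3 were Runx1t1+/-. Of the MYCN ganglia, 3 were Runx1t1+/+ and 2 were Runx1t1+/-, and the 4 tumors were MYCN homozygous and Runx1t1+/+. All libraries, those of ganglia too, carry neuroblastoma as their cell type label, so the titles were used for the tissue. The human transgene has no row in the table, and nothing says whether each library came from 1 animal, so the p-values measure the spread between these libraries.

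LSD1 removes methyl groups from lysine 4 of histone H3, a mark of active enhancers and promoters, and CoREST proteins bridge LSD1 to the deacetylases HDAC1 and HDAC2 and to nucleosomes. The complex is brought to DNA by factors such as REST, which silences neuronal genes outside neurons, and INSM1, GFI1 and SNAI1. The 3 CoREST paralogs differ in their effect on demethylation, and Rcor3 has been reported to antagonize demethylation by LSD1 in megakaryocytic differentiation. Rcor2 is known for its expression in embryonic stem cells and neural progenitors. HDAC1 and HDAC2 also work in the NuRD and Sin3 complexes, whereas HDAC3 is the enzyme of the NCoR-SMRT complex.

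In tumors the scaffold makeup differed from that of ganglia. Rcor2 was 15.8-fold higher than in control ganglia and Rcor3 was lower, so that Rcor2 held 74.2% ± 7.34 (SD, n = 4) of the summed CoREST TPM (transcripts scaled per length and to the same library total) in tumors and 17.1% ± 5.23 (SD, n = 7) in control ganglia. Hdac1, Hdac2, Kdm1a and Rcor1 were higher by smaller amounts. With edgeR and TMM normalization, none of the 9 genes passed between MYCN and control ganglia or between Runx1t1 genotypes. In MYCN against control Runx1t1+/+ ganglia Rcor2 lay at the threshold and passed under some other settings, DESeq2 and upper-quartile normalization among them. Rcor2 ran from 12.70 to 76.31 TPM among the 5 MYCN ganglia, with overlap between the genotypes.

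Sequence upstream of the pair of scaffolds that moved in opposite directions is shown because MYCN, like MYC, binds the E-box CACGTG. In the RefSeq promoter table for GRCm38.p6, which gives 250 bases before to 50 after each start site, 7 of the 9 genes were matched, with 11 promoters among them. Hdac1 and Hdac3 were not matched. The motif, which reads the same on both strands, was found in the promoter of 1 of these 7 genes, Rcor2, against 8.09% of the 27025 genes in the table. It begins 30 bases before the RefSeq start of Rcor2 on the plus strand, in a window of 30 bases at chr19:7267352-7267381, with the motif in capitals. In GENCODE vM21 this window lies inside an annotated exon, since the gene starts further upstream there.
Rcor2 E-box window: tgtgagctgcagCACGTGccccaggcggcg
The stretches upstream of any annotated exon hold no such motif. That of Rcor2 spans 181 bases at chr19:7267144-7267324 on the plus strand, with 64.1% G or C and 10 CpG dinucleotides.
Rcor2 upstream: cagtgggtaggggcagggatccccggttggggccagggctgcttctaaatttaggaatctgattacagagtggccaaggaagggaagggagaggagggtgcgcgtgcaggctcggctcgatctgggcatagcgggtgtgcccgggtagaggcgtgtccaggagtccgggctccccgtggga
That of Rcor3 spans 228 bases at chr1:192138063-192138290 on the minus strand, with 81.6% G or C and 36 CpG dinucleotides.
Rcor3 upstream: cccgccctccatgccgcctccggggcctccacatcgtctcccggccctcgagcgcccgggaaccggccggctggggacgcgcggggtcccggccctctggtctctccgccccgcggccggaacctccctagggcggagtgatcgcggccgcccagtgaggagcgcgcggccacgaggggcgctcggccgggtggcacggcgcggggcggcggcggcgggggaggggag
A match of letters is a description of the sequence, and binding was not measured in these libraries.

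Total counts per library ran from 10692299 to 38618757, and all 4 tumors were among the 10 libraries above 20000000 counts. Both MYCN Runx1t1+/- ganglia lay below that mark, at 12367963 and 14221960 counts. Depth and group therefore cannot be told apart between these ganglia and the tumors. Runx1t1, the targeted gene, was measured at 2.78 to 4.41 TPM in control Runx1t1+/+ ganglia and at 4.36 to 6.28 TPM in control Runx1t1+/- ganglia, so its RNA did not show the label. It was at 70.34, 7.90 and 37.44 TPM in MYCN Runx1t1+/+ ganglia, 8.83 and 16.86 TPM in MYCN Runx1t1+/- ganglia, and 29.51 to 55.81 TPM in tumors. Control Runx1t1+/+ replicate 2 stood apart: its 6 lymphocyte markers summed to 610.3 TPM, against 0.56 to 6.68 TPM in the other libraries. Its 11 sympathetic neuron markers summed to 5622 TPM, against 9893 to 16541 TPM in the other control ganglia. Tumor replicate 3 had a liver marker sum of 6072 TPM. The defining markers of sympathetic neurons, such as Th and Dbh, were present in every group, but 9 of the 11 were lower in tumors by the edgeR test used below. The 7 glial markers summed to 39.8 to 50.3 TPM in tumors and 521.4 to 2226 TPM in ganglia. The 6 myeloid markers summed to 95.43 to 265.38 TPM in tumors and, with the exception of control Runx1t1+/+ replicate 2 at 575.07 TPM, to 21.81 to 71.00 TPM in control ganglia, and 2 of the 6, Cd68 (log2 fold change 3.00) and C1qa (2.02), were higher in tumors. The ribosomal RNA row Rn45s held 8.57% to 12.77% of counts in tumors and 8.80% in MYCN Runx1t1+/+ replicate 1, the ganglion with the highest Rcor2, against 2.15% to 5.64% in the other ganglia. Without that row, 7 of the 9 genes again passed in tumors against control ganglia, among 61.6% of all genes. The bulk RNA does not tell apart fewer cells of a type and less RNA per cell, and the part of cell makeup in the results was not tested.

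**Figure D1:**
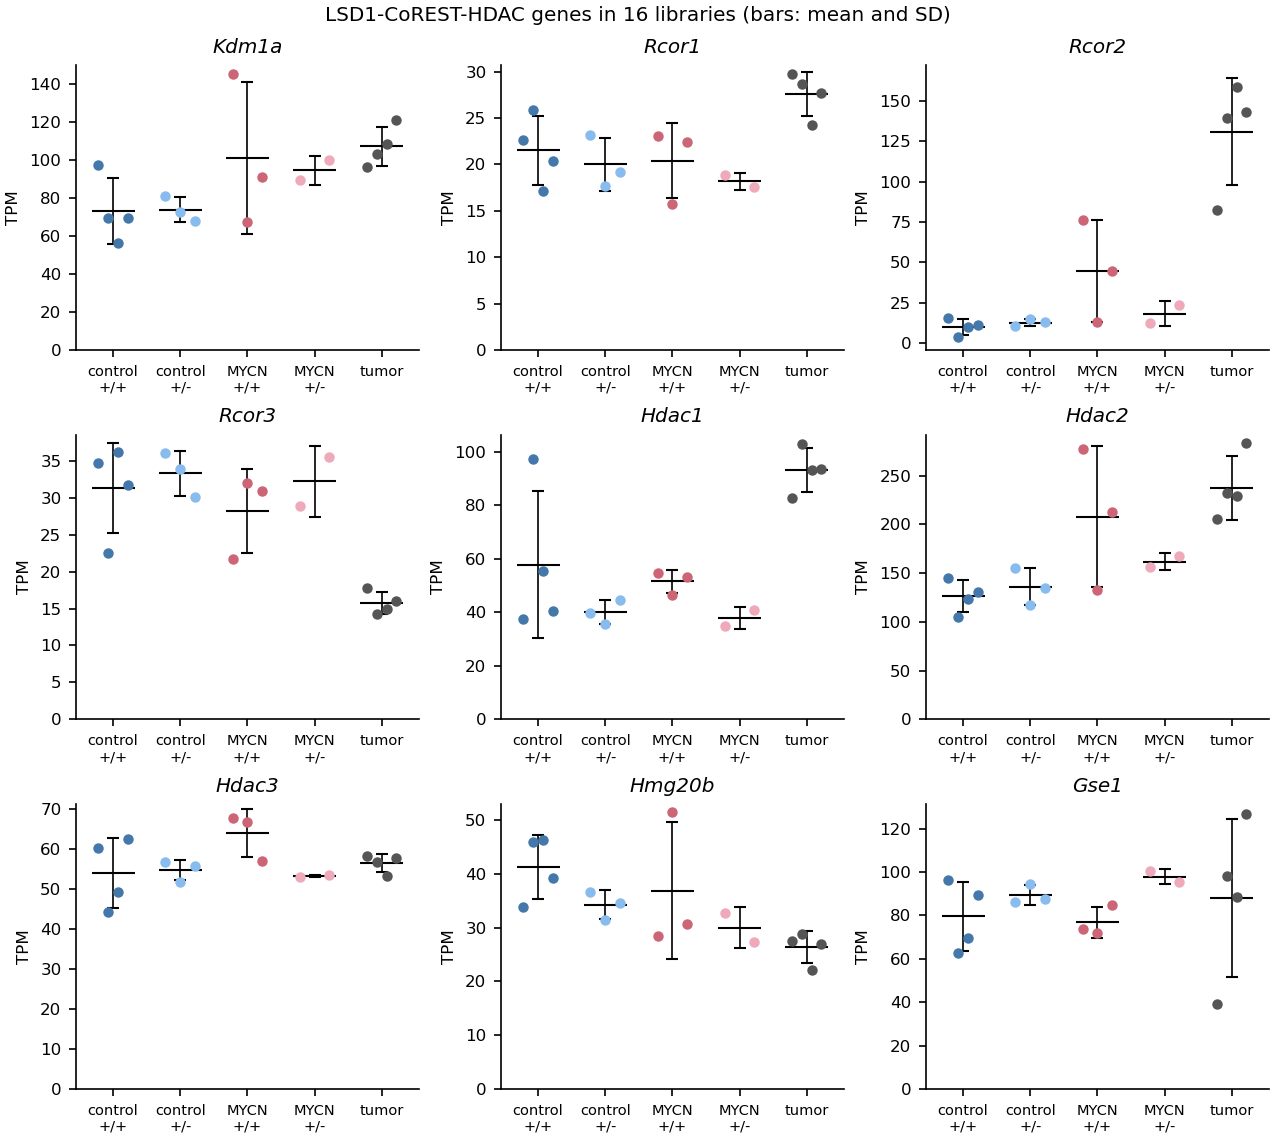
TPM (y axis) of the 9 genes in each library (points) by group (x axis), with +/+ and +/- for the Runx1t1 genotype; bars give the mean and SD of each group, and MYCN Runx1t1+/- has 2 libraries. Tumors lie apart from every ganglion for Rcor2 (82.72 to 158.55 TPM) and Rcor3 (14.32 to 17.81 TPM), and the MYCN Runx1t1+/+ ganglia are spread widely for Rcor2, Kdm1a and Hdac2.

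The demethylase gene Kdm1a (chr4:136550540-136602723, minus strand, GRCm38) was measured at 97.27, 69.58, 56.25 and 69.23 TPM in the 4 control Runx1t1+/+ ganglia and at 80.90, 72.41 and 68.02 TPM in the 3 control Runx1t1+/- ganglia. In MYCN ganglia it was at 145.23, 67.34 and 90.76 TPM with Runx1t1+/+ and at 89.16 and 99.72 TPM with Runx1t1+/-. In tumors it was at 96.36, 103.03, 108.15 and 120.86 TPM. The tumors overlapped the highest control ganglion and lay below MYCN Runx1t1+/+ replicate 1, the highest library of all. Against control ganglia, Kdm1a was 1.97-fold higher in tumors (log2 fold change 0.98, SE 0.21, edgeR quasi-likelihood test, adjusted p = 0.000955).

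Across the genes in that comparison, 7 of the 9 passed at an adjusted p under 0.05, 6 higher and 1 lower. Of all 16665 genes tested, 61.4% passed, 30.6% higher and 30.9% lower, so a share of 7 in 9 stands against a background in which most genes changed. The median log2 fold change was 0.85 over the 9 genes and -0.06 over all genes tested. The fold changes differed on log2(TPM + 1) with limma, an alternative that changes the unit and the tool together. There the median of all genes was -0.35 in tumors against control ganglia, and 31.6% of passing genes were higher, against 49.8% with counts. With upper-quartile or RLE normalization of the counts, that median stayed at -0.06. On log2(TPM + 1) Rcor2, Hdac1, Hdac2, Kdm1a and Rcor1 were still higher and Rcor3 lower, Hdac3 no longer passed, and Hmg20b passed as lower.

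Rcor1 (chr12:111039351-111115901, plus strand), the founding CoREST scaffold, was measured at 17.10 to 25.89 TPM in the 7 control ganglia and 15.72 to 23.10 TPM in the 5 MYCN ganglia. The 4 tumors were at 29.77, 28.67, 24.27 and 27.68 TPM. Only tumor replicate 3 lay within the range of control ganglia, below the 25.89 TPM of control Runx1t1+/+ replicate 2. Rcor1 was 1.80-fold higher in tumors than in control ganglia (log2 fold change 0.85, SE 0.17, adjusted p = 0.000538).

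Rcor2 (chr19:7267325-7275225, plus strand) was the lowest of the 9 genes in control ganglia, at 15.36, 3.70, 10.03 and 11.09 TPM with Runx1t1+/+ and at 10.30, 14.73 and 12.98 TPM with Runx1t1+/-. In MYCN Runx1t1+/+ ganglia it was at 76.31, 12.88 and 44.71 TPM, and in MYCN Runx1t1+/- ganglia at 12.70 and 23.52 TPM. In tumors it was at 82.72, 139.44, 158.55 and 143.25 TPM. Every tumor lay above every ganglion. Of the MYCN ganglia, 3 lay above all control ganglia, and MYCN Runx1t1+/+ replicate 3 and MYCN Runx1t1+/- replicate 1 lay among them. The log2 fold change in tumors against control ganglia was 3.98 (SE 0.43, adjusted p = 4.8e-06). In the ranking by mean TPM of the 19904 genes with a count, Rcor2 was above 51.2% of genes in control ganglia and above 94.9% in tumors.

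Rcor3 (chr1:192098546-192138062, minus strand) went the other way. It was at 34.61, 22.51, 36.11 and 31.73 TPM in control Runx1t1+/+ ganglia, at 36.06, 33.84 and 30.04 TPM in control Runx1t1+/- ganglia, and at 17.81, 14.32, 14.95 and 15.98 TPM in tumors. The lowest ganglion of all was MYCN Runx1t1+/+ replicate 1 at 21.63 TPM, and the other MYCN ganglia were at 28.81 to 35.54 TPM. The tumors did not overlap the ganglia. Rcor3 fell by 0.67 on the log2 scale in tumors against control ganglia (SE 0.15, adjusted p = 0.00196). An antisense gene of the opposite strand, Gm26879, shares 4.42% of the 50-base stretches of Rcor3 transcripts. Whether counting used the strand is not stated.

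The makeup of the CoREST scaffolds within a library does not depend on how libraries are scaled to each other, and TPM is per length, so the 3 paralogs can be compared. In control ganglia Rcor3 was the largest share, at 49.9% ± 4.28 (SD, n = 7), ahead of Rcor1 at 33.0% ± 7.78 and Rcor2 at 17.1% ± 5.23. In tumors the order was reversed, with Rcor2 at 74.2% ± 7.34 (SD, n = 4), Rcor1 at 16.4% ± 4.53 and Rcor3 at 9.41% ± 2.87. The exception to the first order among control ganglia was control Runx1t1+/+ replicate 2, where Rcor1 led with 49.7%. On TPM, the groups did not overlap for any of the 3 shares. The exact two-sided permutation test over libraries gave p = 0.00303 for each share, the smallest that 4 against 7 libraries allow, and an adjusted p of 0.0127 over the 21 tests of shares and ratios made. Among libraries above 20000000 counts alone, 4 tumors against 4 control ganglia, the Rcor2 share differed by 55.0 points without overlap (exact permutation test, p = 0.0286, the smallest this design allows, adjusted p = 0.1). The summed TPM of the 3 scaffolds was 130.3 to 197.8 in tumors and 52.1 to 72.6 in control ganglia.

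MYCN ganglia ran from the level of control ganglia to just below the lowest tumor, at 63.5%. Their Rcor2 share was 63.0%, 21.3% and 45.6% with Runx1t1+/+ and 21.04% and 30.7% with Runx1t1+/-. Against all control ganglia, the Rcor2 share of the 5 MYCN ganglia was 19.3 percentage points higher (exact permutation test, p = 0.00758, adjusted p = 0.0208), with overlapping groups. This call rested on single libraries: the difference was 12.6 points without MYCN Runx1t1+/+ replicate 1 (adjusted p = 0.05), 16.9 without its replicate 4 and 20.7 without MYCN Runx1t1+/- replicate 2 (both adjusted p = 0.0546). It was 14.3 points above 20000000 counts, where 2 MYCN ganglia remained, both Runx1t1+/+, and 23.9 points below. At neither depth could an adjusted p under 0.05 be reached. The Rcor3 share was 10.7 points lower (mean 39.3% against 49.9%, exact permutation test, p = 0.0732, adjusted p = 0.102). Against the MYCN ganglia, the Rcor2 share of tumors was 37.8 points higher without overlap (exact permutation test, p = 0.0159, adjusted p = 0.0333). With 4 against 5 libraries, leaving out any tumor or any MYCN ganglion but MYCN Runx1t1+/+ replicate 3 put that adjusted p between 0.05 and 0.0625, at differences of 34.0 to 44.5 points.

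**Figure D2:**
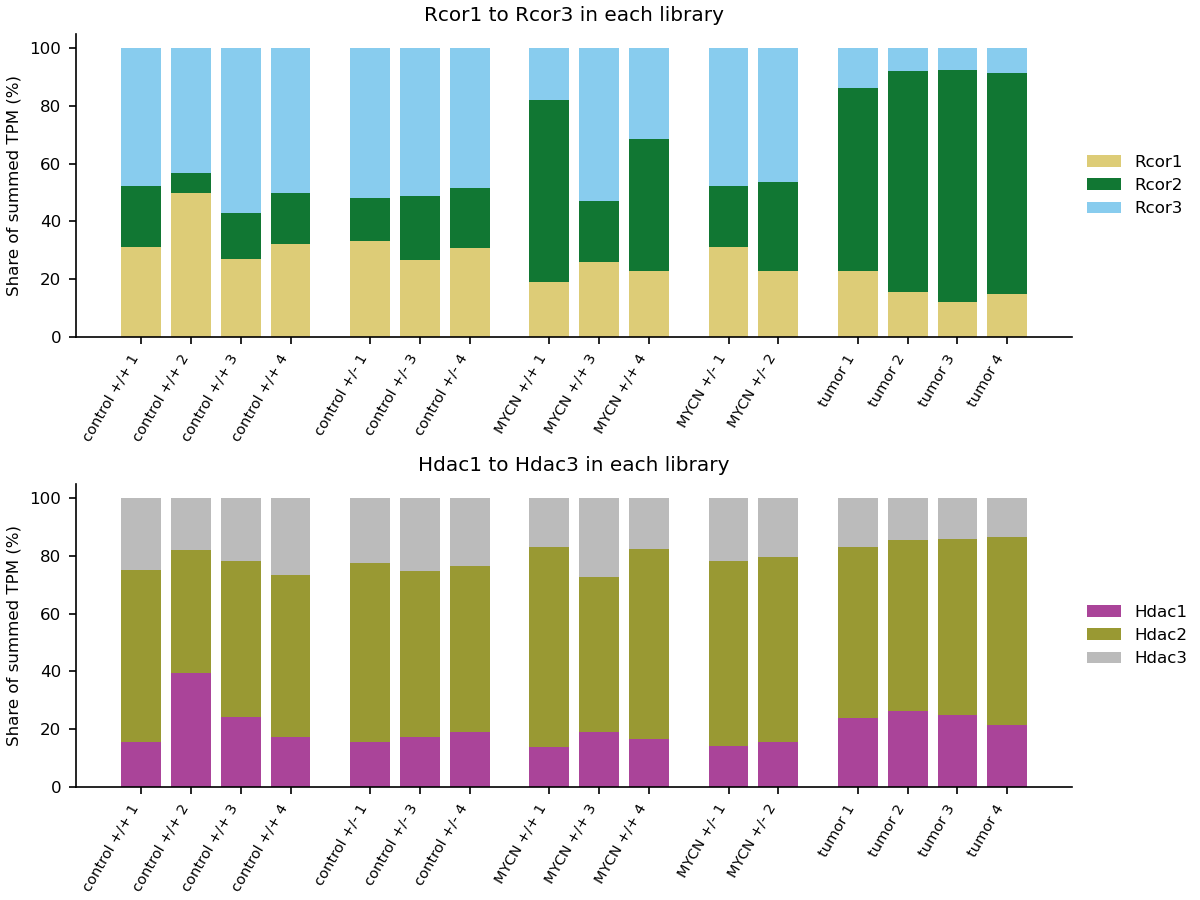
Share of the summed TPM (y axis, percent) held by Rcor1, Rcor2 and Rcor3 (top) and by Hdac1, Hdac2 and Hdac3 (bottom) in each of the 16 libraries (x axis, group and replicate number). Rcor2 holds 63.5% to 80.2% of the scaffold TPM in tumors and 7.10% to 22.3% in control ganglia, whereas Hdac2 is the largest deacetylase share in every library.

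Kdm1a rose less than the summed scaffolds in tumors, although its log2 fold change of 0.98 against control ganglia was above that of Rcor1 (0.85), and Rcor3 fell. Of the 3 scaffolds, only Rcor2 had a larger fold change than Kdm1a. The log2 ratio of Kdm1a TPM to the summed TPM of the 3 Rcor genes was 0.18 ± 0.20 (SD, n = 7) in control ganglia, 0.25 ± 0.25 (SD, n = 5) in MYCN ganglia and -0.69 ± 0.20 (SD, n = 4) in tumors. Every tumor lay below every ganglion. The difference of -0.87 between tumors and control ganglia had an exact permutation p = 0.00303 (adjusted p = 0.0127), and that of -0.94 between tumors and MYCN ganglia had p = 0.00794 (adjusted p = 0.0208), both the smallest their designs allow. Without any 1 of 4 MYCN ganglia (both Runx1t1+/- ganglia and replicates 1 and 4 of the Runx1t1+/+ ganglia) the latter adjusted p was 0.05 to 0.0546, with differences of -1.03 to -0.86.

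Hdac1 (chr4:129516104-129542713, minus strand), a catalytic subunit of the CoREST, NuRD and Sin3 complexes, was at 37.66, 97.29, 55.56 and 40.50 TPM in control Runx1t1+/+ ganglia and at 39.60, 35.70 and 44.78 TPM in control Runx1t1+/- ganglia. Tumors were at 82.57, 102.72, 93.35 and 93.60 TPM. The control ganglion at 97.29 TPM was replicate 2, the library with lymphocyte markers, and the other control ganglia lay below every tumor. The log2 fold change in tumors against control ganglia was 1.38 (SE 0.23, adjusted p = 0.000149), and it was 1.61 without that library. MYCN ganglia were at 35.02 to 54.82 TPM, below all tumors. A processed pseudogene on chromosome 17, Gm10093, which has no row in the table, shares 31.7% of the 50-base stretches of Hdac1 transcripts, so reads could not be placed with certainty there.

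Hdac2 (chr10:36974544-37001889, plus strand), which works in the same complexes, had the highest mean of the 9 genes in both control ganglia and tumors. It was at 105.27 to 155.42 TPM in control ganglia and 205.68 to 283.01 TPM in tumors, without overlap. MYCN Runx1t1+/+ ganglia were at 277.36, 132.87 and 212.97 TPM, so that 2 of the 3 lay within the tumor range, and MYCN Runx1t1+/- ganglia were at 155.88 and 167.87 TPM. The log2 fold change in tumors against control ganglia was 1.3 (SE 0.18, adjusted p = 3.38e-05).

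Hdac3 (chr18:37935844-37955016, minus strand), the deacetylase of NCoR-SMRT, was nearly level on the TPM scale, at 53.40 to 58.30 TPM in tumors, 44.21 to 62.42 TPM in control ganglia and 53.15 to 67.91 TPM in MYCN ganglia. The count-based log2 fold change was 0.50 (SE 0.11, adjusted p = 0.00157), and on log2(TPM + 1) it was 0.06 (limma, adjusted p = 0.611). The call was kept with upper-quartile normalization (0.49, adjusted p = 0.00105), RLE normalization and DESeq2 (both 0.50 on the log2 scale) and was lost with TPM and limma. Within libraries, Hdac3 held 14.7% ± 1.49 (SD, n = 4) of the summed Hdac1 to Hdac3 TPM in tumors and 23.2% ± 2.91 (SD, n = 7) in control ganglia, without overlap (exact permutation test, p = 0.00303, adjusted p = 0.0127). The Hdac1 share did not pass that test (24.1% against 21.3%, adjusted p = 0.614), nor did the Hdac2 share (61.2% against 55.5%, adjusted p = 0.155). Both differences moved with control Runx1t1+/+ replicate 2, the library with lymphocyte markers. Without it the difference in the Hdac1 share went from 2.86 to 5.89 points (exact permutation test, p = 0.0286, adjusted p = 0.0546), and that in the Hdac2 share went from 5.64 to 3.5 points (exact permutation test, adjusted p = 0.106). Against MYCN ganglia, the Hdac1 share was 8.29 points higher in tumors (24.1% against 15.8%, exact permutation test, p = 0.00794, adjusted p = 0.0208). Leaving out 1 of 4 MYCN ganglia (either Runx1t1+/- ganglion, or replicate 1 or 4 of the Runx1t1+/+ ganglia) put that adjusted p at 0.05 to 0.0546, with differences of 7.76 to 8.47 points.

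The accessory genes did not pass in tumors against control ganglia. Hmg20b (chr10:81346048-81350480, minus strand), which encodes BRAF35, an HMG-box protein of the LSD1 complex, was at 22.14 to 28.83 TPM in tumors, 31.44 to 46.21 TPM in control ganglia and 27.25 to 51.44 TPM in MYCN ganglia. The tumors lay below all control ganglia on the TPM scale (limma, -0.50 on log2(TPM + 1), adjusted p = 0.0131), whereas the count-based log2 fold change was -0.08 (SE 0.17, edgeR, adjusted p = 0.718), and 0.02 without tumor replicate 3. Gse1 (chr8:120228456-120581390, plus strand), a coiled-coil protein found with LSD1 and HDACs, was at 39.25, 98.23, 88.32 and 126.80 TPM in tumors and 62.62 to 96.25 TPM in control ganglia. Its log2 fold change was 0.50 (SE 0.23, adjusted p = 0.0695). Without tumor replicate 1, the lowest library for Gse1, it was 0.74 (adjusted p = 0.000668), and without tumor replicate 4, the highest, it was 0.26 (adjusted p = 0.329). The convergent gene Gins2, which serves DNA replication, shares 26.2% of the 50-base stretches of Gse1 transcripts on the opposite strand. Gins2 was at 35.11 to 80.89 TPM in tumors and 3.52 to 12.59 TPM in control ganglia, and its part in the Gse1 values was not tested.

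By mean TPM, the order in control ganglia was Hdac2, Gse1, Kdm1a, Hdac3, Hdac1, Hmg20b, Rcor3, Rcor1 and Rcor2. Gse1 and Kdm1a (83.7 ± 12.7 and 73.4 ± 12.8, SD, n = 7) were within 1 SD of each other, as were Hdac3 and Hdac1 (54.4 ± 6.37 and 50.2 ± 21.8). In tumors the order was Hdac2, Rcor2, Kdm1a, Hdac1, Gse1, Hdac3, Rcor1, Hmg20b and Rcor3. There Rcor2 and Kdm1a (131.0 ± 33.2 and 107.1 ± 10.4, SD, n = 4) lay within 1 SD of Rcor2, Hdac1 and Gse1 (93.1 ± 8.24 and 88.2 ± 36.5) overlapped, and Rcor1 and Hmg20b (27.6 ± 2.38 and 26.4 ± 2.92) did not differ beyond their spread.

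**Figure D3:**
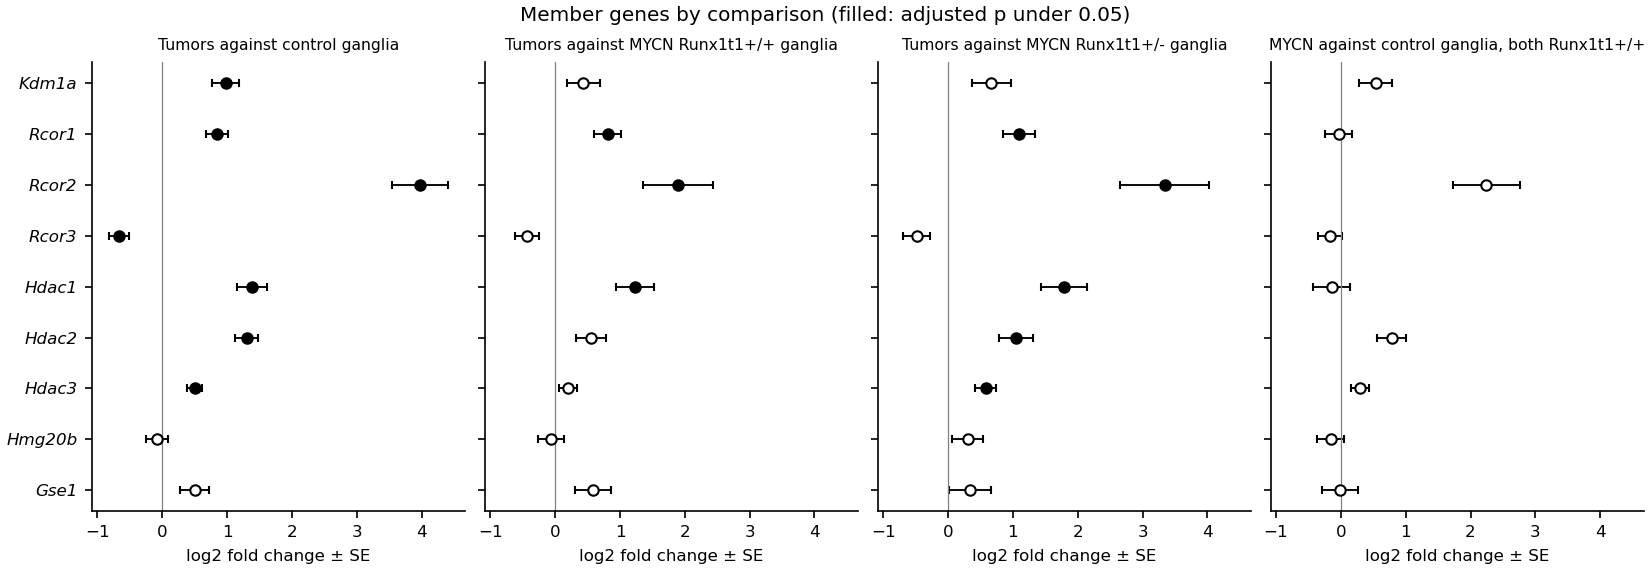
Log2 fold change with its SE (x axis) of the 9 genes (y axis) in 4 comparisons from the edgeR fit; filled points passed at an adjusted p under 0.05. In tumors, Rcor2 is the farthest to the right against control ganglia (3.98) and against both groups of MYCN ganglia (1.90 and 3.34), and no gene is filled for MYCN against control ganglia.

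Comparing tumors with MYCN Runx1t1+/+ ganglia sets tumors against ganglia of the same genotype. These comparisons share the tumors with the one above. Of the 9 genes, 3 passed, all higher in tumors: Rcor1 (log2 fold change 0.81, adjusted p = 0.00896), Rcor2 (1.90, SE 0.54, adjusted p = 0.015) and Hdac1 (1.23, SE 0.30, adjusted p = 0.00613). Of all genes tested, 34.5% passed, 14% higher and 20.5% lower. Rcor3 (-0.44, adjusted p = 0.0789) and Hdac2 (0.56, adjusted p = 0.0743) did not pass. MYCN Runx1t1+/+ replicate 1 carried much of the spread. Without it, 6 genes passed, with Kdm1a (0.89, against 0.43 with all libraries), Hdac2 (0.91) and Rcor3 (-0.55) added, and the share of all genes that passed was 40.6%. Without replicate 3 the values went the other way, to 0.19 for Kdm1a (adjusted p = 0.631), 0.30 for Hdac2 (adjusted p = 0.295) and -0.35 for Rcor3 (adjusted p = 0.249), with 3 of the 9 and 21.3% of all genes passing. Without replicate 4 the adjusted p of Rcor2 was 0.0581.

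Against MYCN Runx1t1+/- ganglia, 5 genes were higher in tumors: Rcor2 (log2 fold change 3.34, SE 0.69, adjusted p = 0.00154), Hdac1 (1.79, SE 0.36, adjusted p = 0.0012), Rcor1 (1.10, SE 0.25, adjusted p = 0.00256), Hdac2 (1.05, SE 0.27, adjusted p = 0.00599) and Hdac3 (0.58, SE 0.16, adjusted p = 0.00918). Here 45.5% of all genes tested passed, 22% higher and 23.5% lower. Kdm1a (0.67, adjusted p = 0.082) and Rcor3 (-0.48, adjusted p = 0.0688) did not pass. Without MYCN Runx1t1+/- replicate 1 only 3 passed, since Hdac2 (0.98, adjusted p = 0.0696) and Hdac3 (0.56, adjusted p = 0.0778) no longer passed at log2 fold changes close to those with both libraries, and 24.8% of all genes passed. With 1 library left in that group, it is assumed to vary like the others. With log2(TPM + 1), the share of passing genes that were higher was 19.4% in place of 40.7% in the comparison with MYCN Runx1t1+/+ ganglia and 27.9% in place of 48.4% in the comparison with MYCN Runx1t1+/- ganglia. On that scale Rcor2 and Hdac1 were higher and Rcor3 was lower in both.

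The effect of the transgene in ganglia at 2 weeks was read from MYCN and control ganglia of the same Runx1t1 genotype. With Runx1t1+/+, none of the 9 genes passed, 2 had an unadjusted p under 0.05, and 0.936% of all genes tested passed. Of those passing, 89.1% were higher, against 37.5% of the 16 genes that passed on log2(TPM + 1). The largest differences were in Rcor2 (log2 fold change 2.25, SE 0.52, adjusted p = 0.0564), Hdac2 (0.78, SE 0.23, adjusted p = 0.0956) and Kdm1a (0.54, SE 0.25, adjusted p = 0.26). Rcor2 sat at the threshold. It passed without MYCN Runx1t1+/+ replicate 3 (2.70, adjusted p = 0.00221) and without control Runx1t1+/+ replicate 2 (1.99, adjusted p = 0.0495), and did not pass without any other single library. Without MYCN Runx1t1+/+ replicate 1 the log2 fold changes were 1.5 for Rcor2 (adjusted p = 0.442), 0.43 for Hdac2 (adjusted p = 0.594) and 0.08 for Kdm1a (adjusted p = 0.951). Without MYCN Runx1t1+/+ replicate 3, Hdac2 passed too (1.04, adjusted p = 0.00387), and Kdm1a was at 0.78 (adjusted p = 0.0514). Of all genes, 10.9% passed without that library and 4.08% without control Runx1t1+/+ replicate 2. By contrast, 0 genes of all tested passed without any 1 of control Runx1t1+/+ replicates 1, 3 and 4 or MYCN Runx1t1+/+ replicates 1 and 4, against 156 with all libraries. Rcor2 also passed with upper-quartile normalization (2.23, adjusted p = 0.0489), and with DESeq2 both Rcor2 (2.23, adjusted p = 0.00132) and Hdac2 (0.77, adjusted p = 0.0239) passed, among 8.44% of all genes. With Runx1t1+/-, none of the 9 passed, none had an unadjusted p under 0.05, and 0% of all genes passed with edgeR. The log2 fold change of Rcor2 there was 0.47 (SE 0.61, adjusted p = 1).

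Runx1t1 genotype was compared within each MYCN background. In MYCN ganglia, none of the 9 genes passed between Runx1t1+/- and Runx1t1+/+, 2 had an unadjusted p under 0.05, and 0.012% of all genes passed. Those 2 were Rcor2, whose log2 fold change was -1.45 (SE 0.64, adjusted p = 0.388), and Hdac3, whose log2 fold change was -0.38 (SE 0.17, adjusted p = 0.384). Single libraries moved the value of Rcor2, which was -0.70 without MYCN Runx1t1+/+ replicate 1 (adjusted p = 0.87) and -1.99 without MYCN Runx1t1+/- replicate 2 (adjusted p = 0.525). Without MYCN Runx1t1+/+ replicate 3, 320 of all genes passed, none of them among the 9. In control ganglia none passed, 0 of the 9 had an unadjusted p under 0.05, and 0% of all genes passed. For the interaction of transgene and genotype, again none of the 9 and 0% of all genes passed, and 1 of the 9 had an unadjusted p under 0.05. The MYCN effect on Rcor2 differed by 1.77 on the log2 scale between the genotypes (SE 0.82, unadjusted p = 0.048, adjusted p = 0.845, edgeR). Without MYCN Runx1t1+/+ replicate 1 that difference was 1.03 (adjusted p = 1), and without single libraries it ran up to 2.32. DESeq2 also called none of the 9 in these 3 comparisons or in MYCN against control Runx1t1+/- ganglia. Of all genes, it called 1.91% between genotypes in MYCN ganglia and 0.0104% in control ganglia. It called 0.19% for the interaction and 0.0675% in MYCN against control Runx1t1+/- ganglia.

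Within the 5 MYCN ganglia, the order of Rcor2 was that of proliferation genes. The 15 cell cycle genes summed to 1644, 160.1 and 871.4 TPM in MYCN Runx1t1+/+ replicates 1, 3 and 4, where Rcor2 was at 76.31, 12.88 and 44.71 TPM. They summed to 122.8 and 342.1 TPM in MYCN Runx1t1+/- replicates 1 and 2, where Rcor2 was at 12.70 and 23.52 TPM. The sums were 81.9 to 465.4 TPM in control ganglia, the highest being Runx1t1+/+ replicate 2, whose Rcor2 was the lowest of all libraries, and 1919 to 2381 TPM in tumors. Runx1t1 had the same 3 highest MYCN ganglia. Glial markers were lowest in MYCN Runx1t1+/+ replicate 1 among the ganglia, at 521.4 TPM. The part of proliferation or cell makeup in the Rcor2 level was not tested.

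For each gene, the 3 genes with the most similar pattern over the 16 libraries were found by the smallest root mean square difference of log2(TPM + 1) after centring. For Rcor2, whose own spread was 1.55 on that scale, they were Sox11, a transcription factor of immature neurons (difference 0.35), Dpf1, a neuronal subunit of the BAF remodelling complex (0.37), and Cenpv (0.38). For Hdac1 (own spread 0.54) they were Hnrnpf (0.11), Rps15a (0.13) and Rpl5 (0.14), an RNA-binding protein gene and a pair of ribosomal protein genes. For Rcor3 (0.45) they were Fbxo18, AI597479 and Dynlrb1, each at 0.12. For Kdm1a (0.35) they were Bahd1 (0.13), Rbm15b (0.14) and Spast (0.14), and Spast was also near Hdac2 (0.13), beside Lsm14b and Cyth2 (both 0.13). For Rcor1 (0.26) they were Nupl1 (0.12), Pde12 (0.14) and Mars2 (0.15). The nearest genes of Hdac3 were Sgta (0.09), Wdr11 and Hccs (both 0.11) against an own spread of 0.15, those of Hmg20b were Cdc42bpg (0.16), Fundc2 and Tmem134 (both 0.17) against 0.31, and those of Gse1 were Gfm1 (0.17), Fam98a and Klhl21 (both 0.19) against 0.36. A likeness of pattern is a description over libraries of several tissues.

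The recruiters and partners of CoREST changed in both directions in tumors. Of 14 such genes, 13 were tested, and 6 were higher and 2 lower than in control ganglia, a share close to the 61.4% of all genes that passed there. Insm1, a zinc-finger factor of neuroendocrine progenitors, was at 64.63 to 113.61 TPM in tumors and 0.02 to 2.5 TPM in control ganglia (log2 fold change 7.90, adjusted p = 7.43e-05). It was at 154.87, 1.27 and 29.40 TPM in MYCN Runx1t1+/+ ganglia and 4.16 and 19.76 TPM in MYCN Runx1t1+/- ganglia. Phf21b, a relative of the complex subunit Phf21a that reads unmethylated H3K4, was at 33.65 to 48.02 TPM in tumors and 0.09 to 1.52 TPM in control ganglia (log2 fold change 6.87, adjusted p = 7.08e-06). In MYCN Runx1t1+/+ ganglia it was at 26.94, 0.81 and 10.98 TPM. It was the 1 partner higher there than in control Runx1t1+/+ ganglia (log2 fold change 4.04, adjusted p = 0.0486), where 0.936% of all genes passed. The call of Phf21b was lost with the replicate block and with the compared groups alone, where 0 of all genes passed. It was also lost without any 1 of 5 of the 7 libraries compared. In 4 of these cases the log2 fold change of Phf21b was 3.79 to 4.20, close to that with all libraries, and without MYCN Runx1t1+/+ replicate 1 it was 2.78 (adjusted p = 0.387).

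Rest, the repressor of neuronal genes that recruits CoREST, was lower. It was at 2.39, 2.46, 2.89 and 2.55 TPM in tumors and 9.70 to 42.79 TPM in control ganglia, the highest again Runx1t1+/+ replicate 2 (log2 fold change -2.37, adjusted p = 0.000303). Snai2, an epithelial-mesenchymal transition factor, was at 0.18 to 0.30 TPM in tumors and 0.81 to 13.03 TPM in control ganglia (-3.13, adjusted p = 0.000587), and replicate 2 was again the highest. Without that library the log2 fold changes were -2.06 for Rest (adjusted p = 0.000121) and -2.59 for Snai2 (adjusted p = 0.000164). Glial and fibroblast markers fell in tumors with these genes, all 7 and all 6 passing, as did 4 of 6 endothelial markers. The endothelial markers summed to 29.55 to 79.13 TPM in tumors and 47.53 to 534.33 TPM in control ganglia, the highest again Runx1t1+/+ replicate 2. The part of these cells in the lower Rest and Snai2 was not tested.

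**Figure D4:**
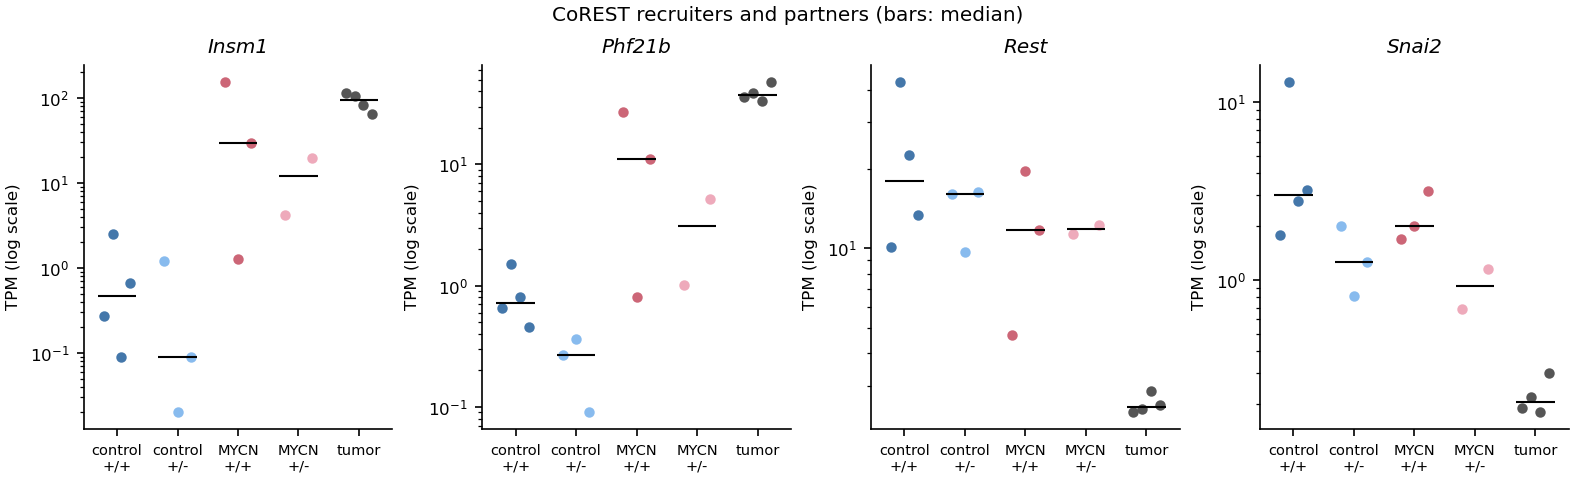
TPM on a log scale (y axis) of 4 CoREST recruiters and partners in each library (points) by group (x axis), with the median as a bar. Insm1 and Phf21b are higher in every tumor than in every control ganglion, and Rest and Snai2 are lower in every tumor than in every ganglion.

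Neuronal genes that REST is known to silence outside neurons moved in both directions. Of 18 tested, 11 were lower in tumors than in control ganglia, 3 were higher and 4 did not pass, with a median log2 fold change of -1.31, against 30.9% lower and 30.6% higher among all genes. The lowest were Syt4 (-3.48, adjusted p = 1.28e-06) and L1cam (-2.85, adjusted p = 0.00013), and the highest were Bdnf (4.09, adjusted p = 8.68e-05) and Nefm (1.73, adjusted p = 0.00287). Nefm was at 4800.62 TPM in tumor replicate 1 and at 948.87, 1729.98 and 1254.90 TPM in tumor replicates 2, 3 and 4. Control ganglia were at 450.88 to 1134.64 TPM, so tumor replicate 2 lay within their range. The 11 sympathetic neuron markers moved with the neuronal genes, 9 lower and 1 higher. Bdnf was also the 1 gene of the list higher in MYCN than in control Runx1t1+/+ ganglia (3.98, adjusted p = 0.0407), where 0.936% of all genes passed. The call of Bdnf, like that of Phf21b, was lost with the replicate block and with the compared groups alone. It was likewise lost without any 1 of 5 of the 7 libraries, at 3.94 to 4.20 in 4 of these cases. Without MYCN Runx1t1+/+ replicate 1 the log2 fold change was 2.71 (adjusted p = 0.31).

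The other complexes that share the deacetylases were higher for the most part in tumors against control ganglia. Of 13 NuRD genes, 9 were higher and 2 lower, with a median log2 fold change of 1.22. Mbd3 (1.83, adjusted p = 4.66e-07) and Mta1 (1.75, adjusted p = 2.27e-06) were the highest, and the neuronal remodeller Chd5 (-2.68, adjusted p = 2.86e-06) and Mta3 (-0.56, adjusted p = 0.00215) were lower. Of 13 Sin3 genes, 7 were higher, led by Sap30 (2.30, adjusted p = 0.000102) and Sin3a (1.22, adjusted p = 2.85e-05), and Brms1l was lower (-0.57, adjusted p = 0.00559). Of 5 NCoR-SMRT genes, 4 were higher, with Gps2 (1.42, adjusted p = 3.05e-06) and Tbl1x (0.75, adjusted p = 0.000236) the highest. Of 6 MiDAC and MIER genes, 4 were higher, led by Elmsan1 (1.59, adjusted p = 0.000252) and Mier2 (1.16, adjusted p = 9.15e-06). Of the remaining deacetylases with the second LSD gene Kdm1b, 1 of 9 was higher, the cytoplasmic deacetylase Hdac6 (0.72, adjusted p = 0.0031), and 2 were lower, Hdac11 (-1.35, adjusted p = 0.000317) and Hdac4 (-0.64, adjusted p = 0.00655). All 15 cell cycle genes were higher (median log2 fold change 4.87), led by Ccnb1 (6.26, adjusted p = 1e-05) and Bub1 (5.64, adjusted p = 2.07e-05). In MYCN against control Runx1t1+/+ ganglia, no gene of these 6 lists passed, and 0.936% of all genes did. The median log2 fold change there was 2.48 for the cell cycle genes, -0.01 to 0.18 for the other lists and -0.04 for all genes. For tumors, the shares in each list stand against 30.6% higher and 30.9% lower among all genes.

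**Figure D5:**
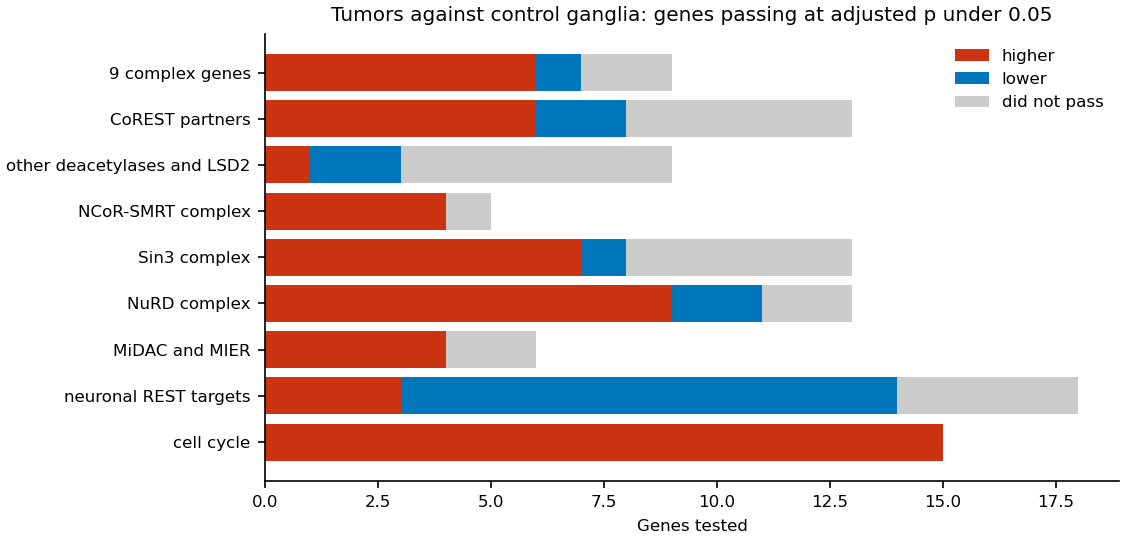
Number of genes tested (x axis) in each list (y axis) that were higher, lower or did not pass at an adjusted p under 0.05 in tumors against control ganglia. All 15 cell cycle genes and 9 of 13 NuRD genes are higher, and 11 of 18 neuronal REST targets are lower.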

How the data were processed

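Per the labels, RNA was isolated from dissected celiac ganglia and tumors and sequenced as stranded total RNA libraries in paired reads, although the molecule label reads polyA RNA. The authors aligned reads to mm10 with STAR and quantified genes with RSEM, versions not used here, and deposited the expected counts that RSEM gives, which are not normalized, beside TPM, which the authors took from RSEM and which are scaled per length and to one total in every library. Whether counting used the strand is not stated. Column headers give the second Runx1t1 genotype as Hom, taken here to mean 2 intact alleles, since titles of those groups say wild-type. No column was left unmapped (0).

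Expected counts were rounded to whole numbers (6.05% of values were not whole). R 4.3.3 with edgeR 4.0.16 kept 16665 of 24411 genes (filterByExpr), normalized by TMM, fitted all 5 groups together by quasi-likelihood and adjusted p over all genes tested by Benjamini-Hochberg (threshold 0.05). The comparison of tumors with control ganglia used the mean of both control groups. Shares of TPM were tested by exact two-sided permutation over libraries, adjusted over 21 tests. The count fits were tested on simulated data first. Alternatives were DESeq2 1.42.0, limma 3.58.1 on log2(TPM + 1), other normalizations and filters, a depth term, a replicate block, the compared groups alone, a fit without the ribosomal RNA row Rn45s, and leaving out each replicate. Depth of 10692299 to 38618757 counts and 2 to 4 libraries per group limit precision.

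The genes and gene lists were chosen with earlier results of these data known. Named beyond the 9 genes are, of each list, at most the 2 higher and 2 lower genes with the largest change past the threshold in tumors against control ganglia, the 3 genes nearest in pattern among those with a mean of at least 1 TPM, Runx1t1, the markers Th, Dbh, Cd68 and C1qa and the row Rn45s, and genes that overlap or copy a member, which were named after their values were seen, as were Phf21b and Bdnf in MYCN ganglia. Leaving out each replicate for Insm1, Phf21b, Rest, Snai2 and Bdnf was chosen after seeing the data. Gene positions are from GENCODE vM21 (GRCm38).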

Additional observations from a re-analysis of the deposited data

Results flagged for a closer look

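In groups of 4 libraries, the gap of the highest or lowest library to its nearest neighbour was compared with the whole range (Dixon's test at the 95% level), over 34 sets of TPM values or shares of the 9 genes and Runx1t1. The Rcor3 share of the summed Rcor1 to Rcor3 TPM in tumor replicate 1 was 13.67%, against 7.56% to 8.55% in the other tumors, with a ratio of 0.838. Chance gives about 1 such case in 20 sets.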

How the results depend on the processing

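The 6 higher and 1 lower genes in tumors against control ganglia stayed at 7 or 8 passing genes under every alternative run, but limma on log2(TPM + 1) gave 5 higher and 2 lower. With upper-quartile normalization, no filter or at least 10 counts in every library, 1 gene passed in MYCN against control Runx1t1+/+ ganglia. Of all genes, 1.43%, 0.996% and 1.78% passed there. In that comparison 2 passed with DESeq2, among 8.44% of all genes, and 0 to 2 without single replicates, among 0% to 10.9%. With the replicate block or the compared groups alone, 0 of all genes passed in it. In tumors against MYCN Runx1t1+/+ ganglia, 6 passed with a depth term (38.5% of all genes) and 2 to 6 without single replicates (21.3% to 40.6%). Against MYCN Runx1t1+/- ganglia, 7 passed with a depth term (43.8% of all genes) and 4 with limma on log2(TPM + 1) (47.9%). Without single tumors, 5 or 6 passed there (42.2% to 45.8%). The other 4 comparisons kept 0 passing genes throughout. On log2(TPM + 1) the sign turned for Gse1 in tumors against control ganglia (-0.04) and MYCN Runx1t1+/- ganglia (-0.26), for Hdac3 against MYCN Runx1t1+/+ ganglia (-0.17) and for Hmg20b against MYCN Runx1t1+/- ganglia (-0.18), none of which passed; the cause was not tested. Without single replicates, Hmg20b ran from -0.13 to 0.02 in tumors against control ganglia and from -0.21 to 0.20 against MYCN Runx1t1+/+ ganglia, and Rcor2 from -0.07 to 0.88 in MYCN against control Runx1t1+/- ganglia. In MYCN against control Runx1t1+/+ ganglia, Rcor2 ran from 1.5 to 2.7, Hdac2 from 0.43 to 1.04 and Kdm1a from 0.08 to 0.78. Between genotypes in MYCN ganglia Rcor2 ran from -1.99 to -0.7, and its interaction from 1.03 to 2.32. Gse1 ran from 0.26 to 0.74 in tumors against control ganglia, and Kdm1a from 0.19 to 0.89 and Hdac2 from 0.3 to 0.91 against MYCN Runx1t1+/+ ganglia. Rcor3 ran from -0.67 to -0.27 in tumors against MYCN Runx1t1+/- ganglia.

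Among libraries above 20000000 counts, no share could reach an adjusted p under 0.05 with so few libraries. The MYCN ganglia above that depth were 2 libraries, both Runx1t1+/+. In tumors against control ganglia the differences were -12.8, 55 and -42.3 points for Rcor1, Rcor2 and Rcor3, -9.59 for Hdac3 and -0.74 for the log2 ratio of Kdm1a to the Rcor genes. In tumors against MYCN ganglia they were 40.7 and -32.7 for Rcor2 and Rcor3, 6.39 for Hdac1 and -0.71 for the ratio, and the Hdac2 difference turned to 1.27. In MYCN against control ganglia the Rcor2 difference was 14.3 above and 23.9 below 20000000 counts, and the ratio turned to -0.03. Without single replicates, the differences in tumors against control ganglia ran from 1.91 to 5.89 for Hdac1 and 3.5 to 6.67 for Hdac2, and those in MYCN against control ganglia ran from -10.3 to -5.8 for Rcor1, 12.6 to 23.1 for Rcor2, -14.1 to -5.32 for Rcor3, 5.72 to 10.2 for Hdac2 and -0.01 to 0.16 for the ratio. In tumors against MYCN ganglia they ran from -10.1 to -6.29 for Rcor1, 34 to 44.5 for Rcor2, -35.2 to -26.5 for Rcor3, 7.58 to 9.15 for Hdac1, -7.02 to -4.48 for Hdac3 and -1.03 to -0.86 for the ratio. Expected counts in place of TPM changed no call. On that unit, however, the Rcor1 share of tumors overlapped that of control ganglia (exact permutation test, p = 0.0152, adjusted p = 0.0333). The 3 nearest genes of Rcor3 all changed with TMM log2 CPM, but stayed among its nearest 50.

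Replicate numbers did not pair the libraries: same-numbered libraries of different groups had correlations of deviations from -0.315 to 0.319, and 5 of 16 were closest to their own number. With the replicate block, 7 genes passed in tumors against control ganglia and 0 in MYCN against control Runx1t1+/+ ganglia. In tumors against MYCN Runx1t1+/+ and Runx1t1+/- ganglia, 3 and 6 passed. Of all genes tested, 59.8%, 0%, 30.2% and 45.5% passed with the block in these comparisons, in that order. Without the block the shares of all genes were 61.4%, 0.936%, 34.5% and 45.5%.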
